A study of Mus musculus with 29 samples.

Results

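Potassium channel genes are described here in the developing mouse lung, in RNA from alveolar septa, the thin walls between air spaces. Members were the protein coding genes whose NCBI gene ID carries a symbol that starts with Kcn, goes on with lower case letters and ends in a number. This takes in pore subunits and the auxiliary subunits that bind them. Of 22779 gene IDs in the deposited table, 92 met the rule, and all 92 had values. The rule used symbols and no measured value, but a repeated ID was read from its line of highest mean FPKM.

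The animals were 29 wild type C57BL/6 mice of 15 ages from embryonic day 16.5 (E16.5) to postnatal day 28 (P28), 2 animals an age and 1 at P28. Septa were cut out of frozen lung sections with a laser, around the alveolar areas and away from large vessels and bronchi, and each library comes from 1 animal. No animal received a treatment. For comparison the ages were put in 4 stages, namely prenatal (E16.5 and E18.5, 4 libraries), postnatal saccular (P0.5 to P2.5, 8 libraries), early alveolar (P4 to P10, 8 libraries) and late alveolar (P13.5 to P28, 9 libraries). Values are FPKM, fragments scaled by transcript length and by the mapped fragments of the library, so levels of different genes can be set side by side per length. The read depth is unknown, so error is given as the variation among animals.

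Potassium channels let potassium ions leave or enter a cell along their gradient and thereby set its resting voltage. Voltage gated channels (Kcna, Kcnb, Kcnc, Kcnd, Kcnh, Kcnq) open when the membrane is depolarized, inward rectifiers (Kcnj) pass current mainly near the resting voltage, and tandem pore channels (Kcnk) carry a steady leak. Calcium activated channels (Kcnma, Kcnn) couple a rise in calcium to the voltage. Auxiliary families (Kcnab, Kcne, Kcnip, Kcnmb) and silent subunits (Kcnf, Kcng, Kcns, Kcnv) make no channel of their own and change the gating or the membrane transport of the pores they join. In the lung, epithelial potassium channels hold the driving force for chloride and sodium transport, and those of vascular and airway muscle set its tone.

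Markers of the labelled tissue were present. All 6 markers of alveolar type 1 cells, all 6 of type 2 cells, all 6 of endothelium and all 7 of pericytes had a mean FPKM of at least 1. Heart muscle markers were present too, and unevenly. Their summed level over 8 genes was 1329 and 2617 FPKM in the E16.5 embryos 9 and 2, 588.2 in P0.5 pup e and 638.7 in P5 pup b. In the other 25 libraries it lay between 10.2 and 172. A further 3 libraries, P19 pups d and f and P10 pup a, listed 578, 242 and 416 of 8623 well expressed genes at 0, against 1 to 112 in the rest. An FPKM of 0 in these 3 may therefore be a failed estimate. In bulk tissue, fewer cells of a type and less RNA per cell cannot be told apart.

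Potassium channel RNA was spread over many genes at low levels. Of the 92 members, 36 had a mean FPKM of at least 1 over the 29 libraries, 65 reached 1 in some library, 49 reached it in at least 4 libraries, and 11 reached it in every library. A single library held 28 to 45 members at FPKM 1 or more, with a median of 33. The highest count was in the E16.5 embryo 2, the library with the most heart muscle marker RNA. The members' summed level was 226 ± 27.9 FPKM (SD, n = 29). The 10 most abundant members made up 53.9% of it. Another 5 members, Kcns1, Kcnk9, Kcna10, Kcnk15 and Kcnk16, were listed at 0 in all 29 libraries.

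**Figure D1:**
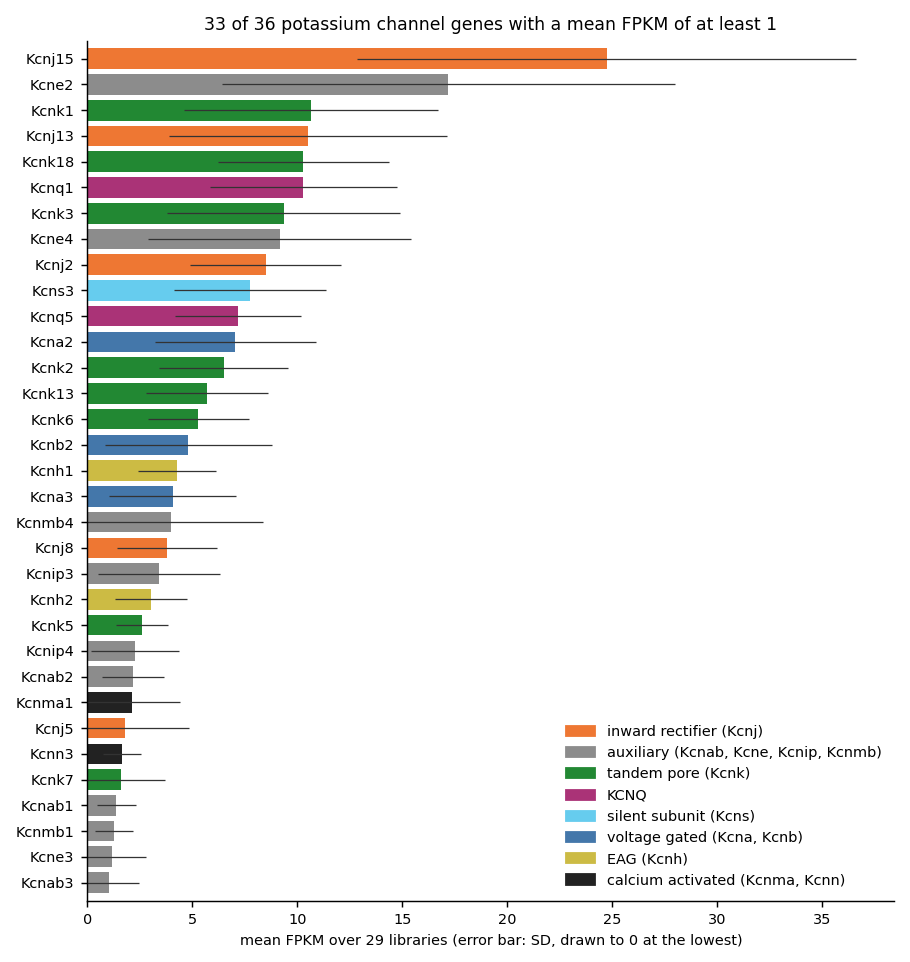
Mean FPKM over 29 libraries of 33 of the 36 members with a mean of at least 1, with bars coloured by channel class and error bars showing the SD over libraries. Kcnj15 at 24.7 and Kcne2 at 17.2 lead, and the inward rectifier, tandem pore and auxiliary classes hold most of the upper places.

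Among the 15 inward rectifiers, 5 had a mean of at least 1. Kcnj15 (Kir4.2) was the most abundant member of all, with a median of 21.0 FPKM, a low of 5.50 in the E16.5 embryo 2 and a high of 47.6 in P1 pup d. Kcnj13 (Kir7.1), a rectifier of transporting epithelia, averaged 10.5 ± 6.63 FPKM (SD, n = 29). Its exons share 49.1% of their bases with exons of Gigyf2 on the opposite strand, and the strand setting of the counting is not given in the sources used here. Kcnj2 (Kir2.1), the classical inward rectifier, averaged 8.50 ± 3.59 FPKM (SD, n = 29). Kcnj8 (Kir6.1), the pore of the ATP sensitive channel of vascular muscle and pericytes, averaged 3.79 ± 2.37. The fifth was Kcnj5 (Kir3.4) at 1.80, and its level rested on few libraries, as described below.

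Kcne2, a single pass auxiliary subunit that joins KCNQ1 and other pores, was second with a median of 16.0 FPKM, a low of 0 in the E16.5 embryo 2 and a high of 47.4 in P4 pup a. The family held 3 members of 4 at a mean of at least 1, since Kcne4 averaged 9.17 and Kcne3 1.18. The pore they can join, Kcnq1, averaged 10.3 ± 4.45 FPKM (SD, n = 29) and was at or above 3.63 in every library. Kcnq5 averaged 7.20 FPKM, while Kcnq3 stayed below 1 in every library.

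Kcnj15 and Kcne2 lie on chromosome 16 and are the most abundant members, so the 250 bases before their starts are shown, from RefSeq on GRCm38.p6 and on the plus strand. Kcne2 has 2 starts in that table, with windows chr16:92292139-92292388 and chr16:92295366-92295615, and the window of Kcnj15 is chr16:95257308-95257557. No exon of the GENCODE M21 annotation lies in any of the 3. Motifs were searched on both strands. They were TATAAA near many starts, the promoter element CCAAT and the GC box with the letters GGGCGG. The cyclic AMP response element was searched as TGACGTCA and the E box as CACGTG. Capitals mark a match, which here is only the GC box, read on the minus strand.
Kcne2 first start: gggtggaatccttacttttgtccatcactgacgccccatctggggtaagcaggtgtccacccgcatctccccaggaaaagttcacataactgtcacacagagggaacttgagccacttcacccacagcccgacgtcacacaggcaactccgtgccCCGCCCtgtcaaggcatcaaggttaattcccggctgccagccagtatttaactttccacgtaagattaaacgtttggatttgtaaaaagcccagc
Kcne2 second start: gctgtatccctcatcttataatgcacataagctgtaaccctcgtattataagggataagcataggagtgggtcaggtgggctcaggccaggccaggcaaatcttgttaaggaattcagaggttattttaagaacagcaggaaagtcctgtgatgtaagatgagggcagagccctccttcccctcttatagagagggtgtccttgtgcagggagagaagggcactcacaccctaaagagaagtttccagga
Kcnj15: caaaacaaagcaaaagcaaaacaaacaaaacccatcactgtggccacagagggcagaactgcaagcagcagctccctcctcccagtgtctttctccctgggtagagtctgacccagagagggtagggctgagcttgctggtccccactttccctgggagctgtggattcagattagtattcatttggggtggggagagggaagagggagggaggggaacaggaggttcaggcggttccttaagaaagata
Windows were found for 67 of the 92 members, 92 windows in all. The GC box was in 44.6% of them, against 32.7% of all 32851 windows in the table. CCAAT was in 29.3% against 33.8%, TATAAA in 3.3% against 12.4%, and CACGTG in 6.5% against 6.0%. TGACGTCA was in none of the 92 and in 1.5% of all windows. A match is only a run of letters and was not tested as a site.

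Tandem pore genes were the family with the most members in use, 8 of 14. Kcnk1 (TWIK1), a leak channel of epithelia, averaged 10.6 ± 6.04 FPKM (SD, n = 29). Kcnk3 (TASK1), the acid sensitive leak channel known from pulmonary artery muscle, averaged 9.36 ± 5.55, and its highest library, P10 pup a at 33.4, was one of the 3 with many zeros. Kcnk2 (TREK1), which opens on membrane stretch, averaged 6.50, Kcnk13 5.72, Kcnk6 5.29, Kcnk5 2.62 and Kcnk7 1.61. Kcnk18 (TRESK) averaged 10.3, but its gene ID stands on 2 lines of the table, one with a mean of 10.3 FPKM and one with 0.0839. The higher line is used here, and which of the lines stands for the gene cannot be told from the table.

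Of the 17 Kv1 to Kv4 genes, 5 had a mean of at least 1. Among them were Kcna2 (Kv1.2) at a mean of 7.06 FPKM, Kcnb2 (Kv2.2) at 4.81 and Kcna3 (Kv1.3) at 4.07. No Kcnd gene averaged 1, although 2 of the 4 Kcnip genes, whose proteins are partners of Kv4 pores, did. These were Kcnip3 at 3.42 and Kcnip4 at 2.27. The silent subunit Kcns3, which joins Kv2 pores, averaged 7.75 ± 3.60 FPKM (SD, n = 29), and the other 9 silent genes averaged below 1. All 3 Kcnab genes, partners of Kv1 pores, averaged between 1.03 and 2.17. Of the 8 Kcnh genes, Kcnh1 (EAG1) averaged 4.30 and Kcnh2 (ERG1) 3.03. The calcium activated pores were low, with Kcnma1 (the BK channel) at 2.13 and Kcnn3 at 1.66.

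After birth 6 members were higher and none was lower. The stages were compared with limma on log2(FPKM + 1) over the 14616 genes that reached an FPKM of 1 in at least 4 libraries. P-values were adjusted over all of them by the Benjamini-Hochberg method, and a gene was called at an adjusted p under 0.05. Differences on this scale understate the change of low genes. In postnatal saccular against prenatal septa, 6 of the 49 members tested were called higher, beside 9.11% of all genes. None was called lower, beside 6.81% of all genes, and 4 were lower at an unadjusted p under 0.05. The members' median difference was 0.06, against -0.0041 over all genes. Cell type markers moved in the same comparison. Called higher were 5 of 8 smooth muscle, 4 of 6 type 2, 3 of 6 type 1, 3 of 6 endothelial and 2 of 7 pericyte markers, and called lower were 3 of 8 heart muscle markers and 1 of 7 pericyte markers. Their part in the members' results was not tested.

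Kcnh1, a voltage gated channel of the ether-a-go-go family, rose at birth. It had 3.92 FPKM at the lowest, 4.89 at the median and 7.28 at the highest in postnatal saccular septa, against 1.82, 2.14, 0.409 and 0.226 FPKM in prenatal septa (E16.5 embryos 9 and 2, then E18.5 embryos 4 and 3). No library of one stage reached the other, and the E18.5 libraries were the lowest of all. On the log2 scale it differed by 1.63 (SE 0.29, adjusted p = 2.8e-04), and it stood in all alternatives.

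Kcne2 had 1.74 FPKM at the lowest, 22.4 at the median and 36.5 at the highest in postnatal saccular septa, against 1.46, 0, 12.1 and 3.84 FPKM in prenatal septa. Of the 8 postnatal libraries 6 lay above all prenatal ones, and P1.5 pup d at 1.74 lay among them. The difference was 2.30 (SE 0.54, adjusted p = 0.00392). Against the E18.5 libraries by themselves it was 1.13, with an adjusted p of 0.33.

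Kcnk3, Kcnk18 and Kcnq5 were called higher too. Kcnk3 had 6.92, 10.5 and 12.0 FPKM (lowest, median, highest) in postnatal saccular septa, against 5.61, 4.13, 5.28 and 2.91 in prenatal septa, a log2 difference of 1.02 (SE 0.29, adjusted p = 0.0151). Kcnk18, read from the higher of its 2 lines, had 9.81, 11.6 and 19.6 FPKM, against 5.72, 4.29, 7.66 and 6.82. The difference was 0.91 (SE 0.25, adjusted p = 0.0112), and its other line, at 0 in 22 libraries, was not tested by itself. Kcnq5, a KCNQ pore found in vascular muscle, had 5.03, 6.11 and 9.16 FPKM, against 2.26, 2.10, 4.64 and 4.38, a difference of 0.86 (SE 0.28, adjusted p = 0.0367). In each of the 3 the stages did not overlap. These members were taken because they were called, and the share of all genes without overlap is not given here. The 8 smooth muscle markers, summed, were 280.9, 431.8 and 657.8 FPKM in postnatal saccular septa, against 345.3, 375.8, 198.3 and 204.9 in prenatal septa. With only the 2 E18.5 libraries before birth the calls of Kcne2, Kcnk3, Kcnk18 and Kcnq5 were lost. The difference of Kcnk3 was then no smaller (1.13, adjusted p = 0.0771), that of Kcnk18 was 0.68 (0.238) and that of Kcnq5 0.46 (0.52). Without the 4 libraries highest in heart muscle markers, which leaves the same 2 prenatal libraries, the 4 calls were lost as well, with Kcnk3 at 1.11. For Kcnk18 leaving out the E16.5 embryo 2 also ended the call (adjusted p = 0.0633), for Kcnk3 the E18.5 embryo 3 (0.0606), and for Kcnq5 any of 5 libraries (0.0581 to 0.144).

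**Figure D2:**
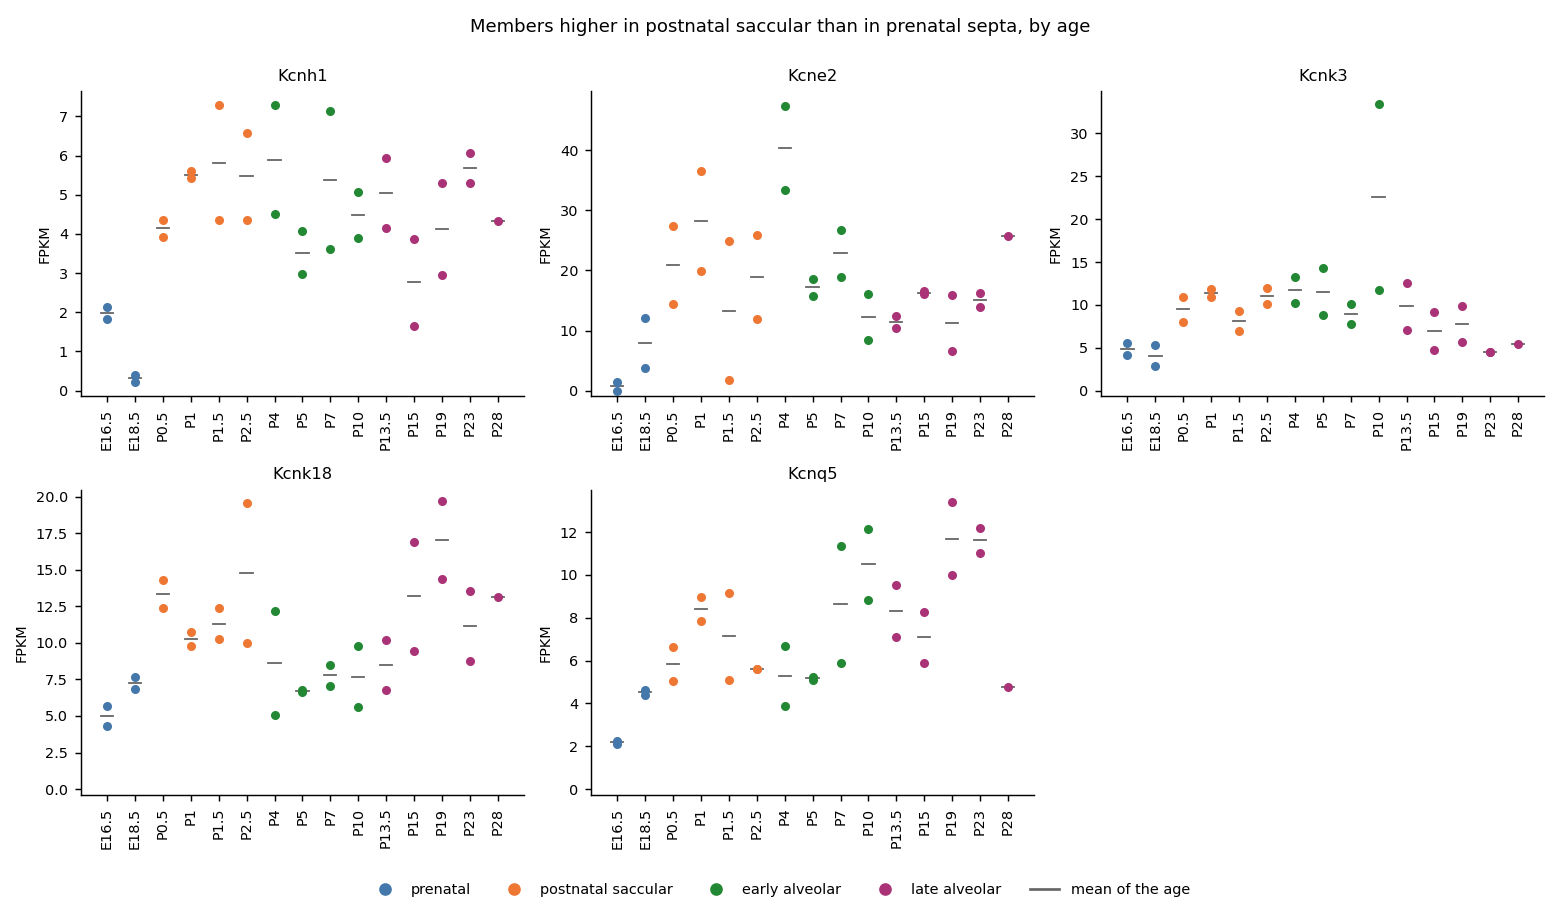
FPKM of 5 of the 6 members called higher in postnatal saccular than in prenatal septa, by age, 1 point per library and a line at the mean of each age. Kcnh1 is at or below 2.14 in all 4 prenatal libraries and at or above 3.92 in the 8 libraries of P0.5 to P2.5, while Kcne2 is spread from 1.74 to 36.5 after birth.

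The 2 prenatal ages differed from each other in 2 members. Kcnj15 had 35.6 and 37.0 FPKM at E18.5, against 7.36 and 5.50 at E16.5. In a limma fit of 15 ages the log2 difference was 2.34 (SE 0.39, adjusted p = 0.00125), and 1 of 49 members was called higher, beside 2.52% of all genes. The alveolar type 2 markers, summed over 6 genes, were 14070 and 17200 FPKM at E18.5 and 5412 and 2209 at E16.5, and the type 1 markers, also 6, were 1087 and 939.3 FPKM at E18.5 and 253.9 and 249.3 at E16.5. Called higher were 5 of the 6 type 2, all 6 type 1 and 4 of 6 endothelial markers. Called lower were 4 of 8 heart muscle, 3 of 4 skeletal muscle and 2 of 5 neuroendocrine and neuronal markers. Of 4 mesothelial markers 2 were lower and 1 higher. The part of the markers' cells in the members' results was not tested. Kcng2, a silent subunit, had 0 and 0.26 FPKM at E18.5, against 1.75 and 7.77 at E16.5, a difference of -2.13 (SE 0.48, adjusted p = 0.0137). It was the 1 member called lower, beside 2% of all genes. Kcng2 passed the filter only through both E16.5 libraries, P1.5 pup d and P5 pup b. It was not tested once one of these was left out. Without the E18.5 embryo 4 its adjusted p was 0.142, and with a pseudocount of 0.1 it was 0.0654.

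The E16.5 embryo 2 was the highest library of Kcng2, Kcnj5 and Kcne1 alike. Kcnj5, which with Kcnj3 forms the acetylcholine activated channel of the atrium, had 8.25 and 13.7 FPKM in the E16.5 embryos 9 and 2, 6.34 in P0.5 pup e and 4.03 in P5 pup b. These are its 4 highest libraries and also the 4 highest in heart muscle markers. In the other 25 libraries Kcnj5 was at or below 3.37. Kcne1, the partner of KCNQ1 in the slow cardiac current, had 5.39 and 8.38 FPKM at E16.5, was listed at 0 in 26 libraries and stood at 0.06 in P2.5 pup i. Kcnj3 itself had another order, with 6.47 FPKM in P0.5 pup e, 4.37 in P4 pup e, 3.88 in the E18.5 embryo 3 and 1.97 and 0.262 in the E16.5 embryos 9 and 2. The part of heart muscle RNA in these levels was not tested.

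**Figure D3:**
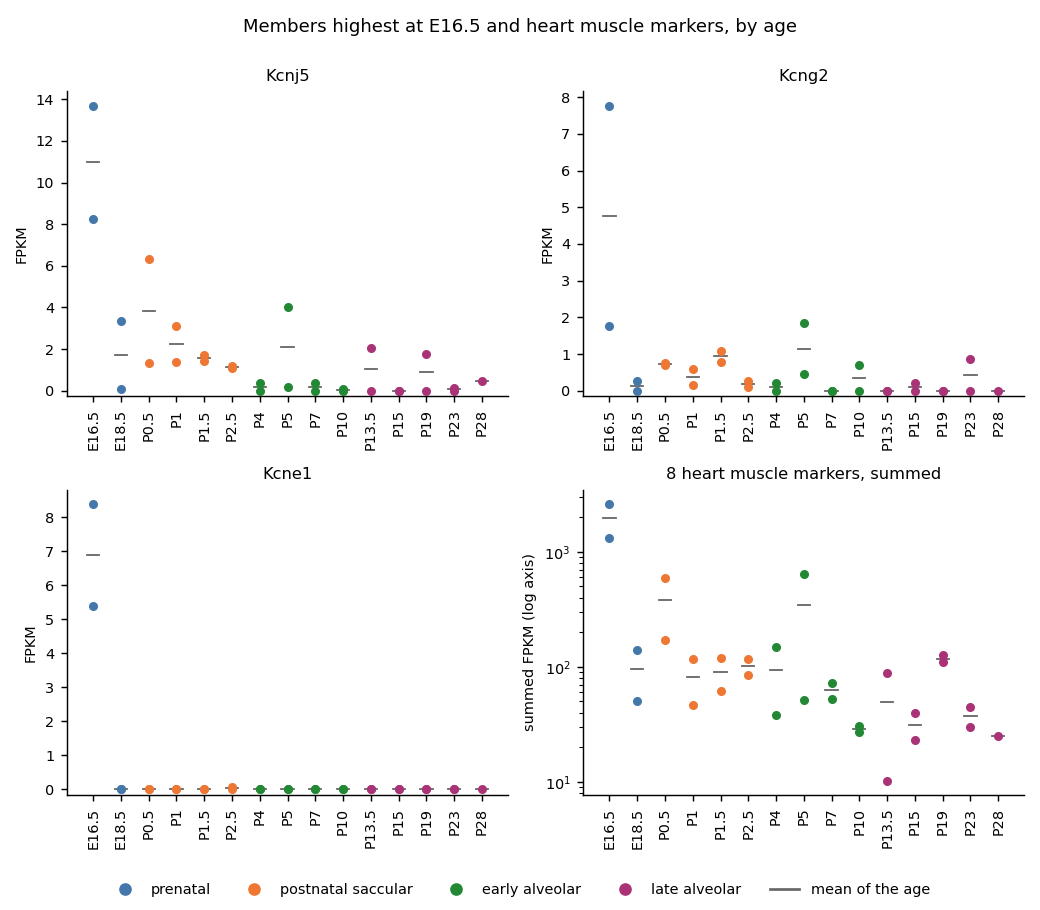
FPKM of Kcnj5, Kcng2 and Kcne1 by age, and the summed FPKM of 8 heart muscle markers on a log axis, 1 point per library and a line at the mean of each age. Both E16.5 libraries stand highest in Kcnj5 (8.25 and 13.7) and in the marker sum (1329 and 2617), with P0.5 pup e and P5 pup b next.

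At the start of septation 1 member was called. In early alveolar against postnatal saccular septa Kcnb2, a delayed rectifier, was called higher, 1 of 49 members beside 0.527% of all genes. Its 8 early alveolar libraries held 8.68 FPKM at the lowest, 9.89 at the median and 12.5 at the highest, against 0.991, 2.96 and 11.9 in postnatal saccular septa. Only P0.5 pup f at 11.9 reached the early alveolar range, and the next highest postnatal saccular library had 3.84. The log2 difference was 1.42 (SE 0.31, adjusted p = 0.0161), and the call held with each library left out. No member was called lower by limma, beside 0.937% of all genes, with 4 lower at an unadjusted p under 0.05. The members' median difference was -0.12, against -0.03 over all genes.

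Kcnb2 then fell after P10. It had 0.632 FPKM at the lowest, 1.67 at the median and 6.39 at the highest in late alveolar septa, against 8.68, 9.89 and 12.5 in early alveolar septa. No late library reached the early range, and P13.5 pup c at 6.39 came nearest. This was a log2 difference of -1.90 (SE 0.30, adjusted p = 6.3e-05). It stood in all alternatives and with every library left out.

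Kcnma1, the BK channel pore, was lower in late alveolar septa too. It had 0 FPKM at the lowest, 0.56 at the median and 1.98 at the highest in late alveolar septa, against 0.717, 4.16 and 10.8 in early alveolar septa. Of the 9 late libraries 6 lay below all early ones. Within the early stage its age means were 3.96 at P4, 4.39 at P5 and 7.81 at P7, but 1.40 at P10. The early low of 0.717 was P10 pup a, one of the 3 libraries with many zeros. Limma gave a difference of -1.65 (SE 0.33, adjusted p = 0.00119). Its smooth muscle partner Kcnmb1 had a median of 0.89 FPKM in late and 1.09 in early alveolar septa and was not called.

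The 8 smooth muscle markers, summed, were lower in late alveolar septa too. Their summed level was 179 FPKM at the lowest, 201.3 at the median and 330.4 at the highest in late alveolar septa, against 388.5, 553.3 and 712.9 in early alveolar septa, and 7 of the 8 were called lower. In postnatal saccular septa the sum lay between 280.9 and 657.8. The library at 657.8, P0.5 pup f, was also the highest of its stage in Kcnb2 (11.9) and in Kcnma1 (4.87). P13.5 pup c was the highest late library in the sum and in Kcnb2, but not in Kcnma1. There it had 0.665 FPKM, and P19 pup d was highest at 1.98. Between postnatal saccular and early alveolar septa no smooth muscle marker was called. The part of the markers' cells in these results was not tested.

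Late against early alveolar septa gave 4 members higher and 4 lower of 49, beside 3.89% and 7.47% of all genes. The members' median difference was -0.09, as was that of all genes. With quantile normalization the members divided 5 higher to 2 lower and all genes 741 to 864, against 568 to 1092 without it. The other members that fell were Kcna6 and Kcnk3. Kcna6 (Kv1.6) had 0, 0.174 and 0.964 FPKM (lowest, median, highest) in late alveolar septa, against 0.28, 1.32 and 2.68 in early alveolar septa, a log2 difference of -0.91 (SE 0.24, adjusted p = 0.0106). It shares 39.6% of its exon bases with the antisense gene Gm26673. Kcnk3 had 4.52, 5.73 and 12.5 FPKM, against 7.75, 11.0 and 33.4, a difference of -0.80 (SE 0.23, adjusted p = 0.0209). Both calls were lost with quantile normalization, at adjusted p of 0.191 and 0.0566.

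Members higher in late alveolar septa were Kcnn4, Kcnj15, Kcna2 and Kcnk18. Kcnj15 had 15.9 FPKM at the lowest, 30.1 at the median and 38.0 at the highest in late alveolar septa, against 10.2, 14.8 and 17.9 in early alveolar septa. Both P13.5 libraries lay within the early range, and the 7 libraries from P15 on lay above it. The log2 difference was 0.89 (SE 0.29, adjusted p = 0.0445), and leaving out any of 16 libraries ended the call (adjusted p up to 0.0879). Kcnj15 thus had age means of 36.3 FPKM at E18.5 and 11.3 at P4, and 38.0 in the 1 library of P28. Its difference of early alveolar against postnatal saccular septa was not called (-1.03, adjusted p = 0.079).

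Kcna2 had 4.08, 7.94 and 11.0 FPKM in late alveolar septa, against 3.32, 4.06 and 5.46 in early alveolar septa. Of the 9 late libraries 7 lay above all early ones. The log2 difference was 0.80 (SE 0.24, adjusted p = 0.0276). It was lost without P4 pup a (0.0526), without P15 pup e (0.0506) and without the 3 libraries with many zeros (0.0645). Kcna2 was highest of all at E18.5, at 18.3 and 15.7 FPKM.

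Kcnn4, the intermediate conductance calcium activated channel of epithelial and blood cells, had 0, 1.28 and 4.86 FPKM in late alveolar septa, against 0, 0 and 0.827 in early alveolar septa. It differed by 1.04 on the log2 scale (SE 0.32, adjusted p = 0.0311). Leaving out any of 6 libraries ended the call (adjusted p up to 0.0621). Its highest libraries after birth, P13.5 pup c at 4.86 and P15 pup c at 4.32, were also high in 5 macrophage markers (87.2 and 239.6 FPKM summed, against 22.4 to 71.8 in early alveolar septa). P28 pup c had 171 FPKM of these markers and 0.63 of Kcnn4. Their part in the result was not tested. Kcnk18, again read from its higher line, had 6.75, 13.2 and 19.7 FPKM, against 5.09, 6.94 and 12.2. The difference was 0.62 (SE 0.20, adjusted p = 0.0369), and any of 10 libraries left out ended the call (adjusted p up to 0.0836). Removal of the 4 libraries highest in heart muscle markers ended it too (0.0704), as did a model of the 2 stages compared (0.0833). Without the 3 libraries with many zeros the difference was 0.44 (adjusted p = 0.183).

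**Figure D4:**
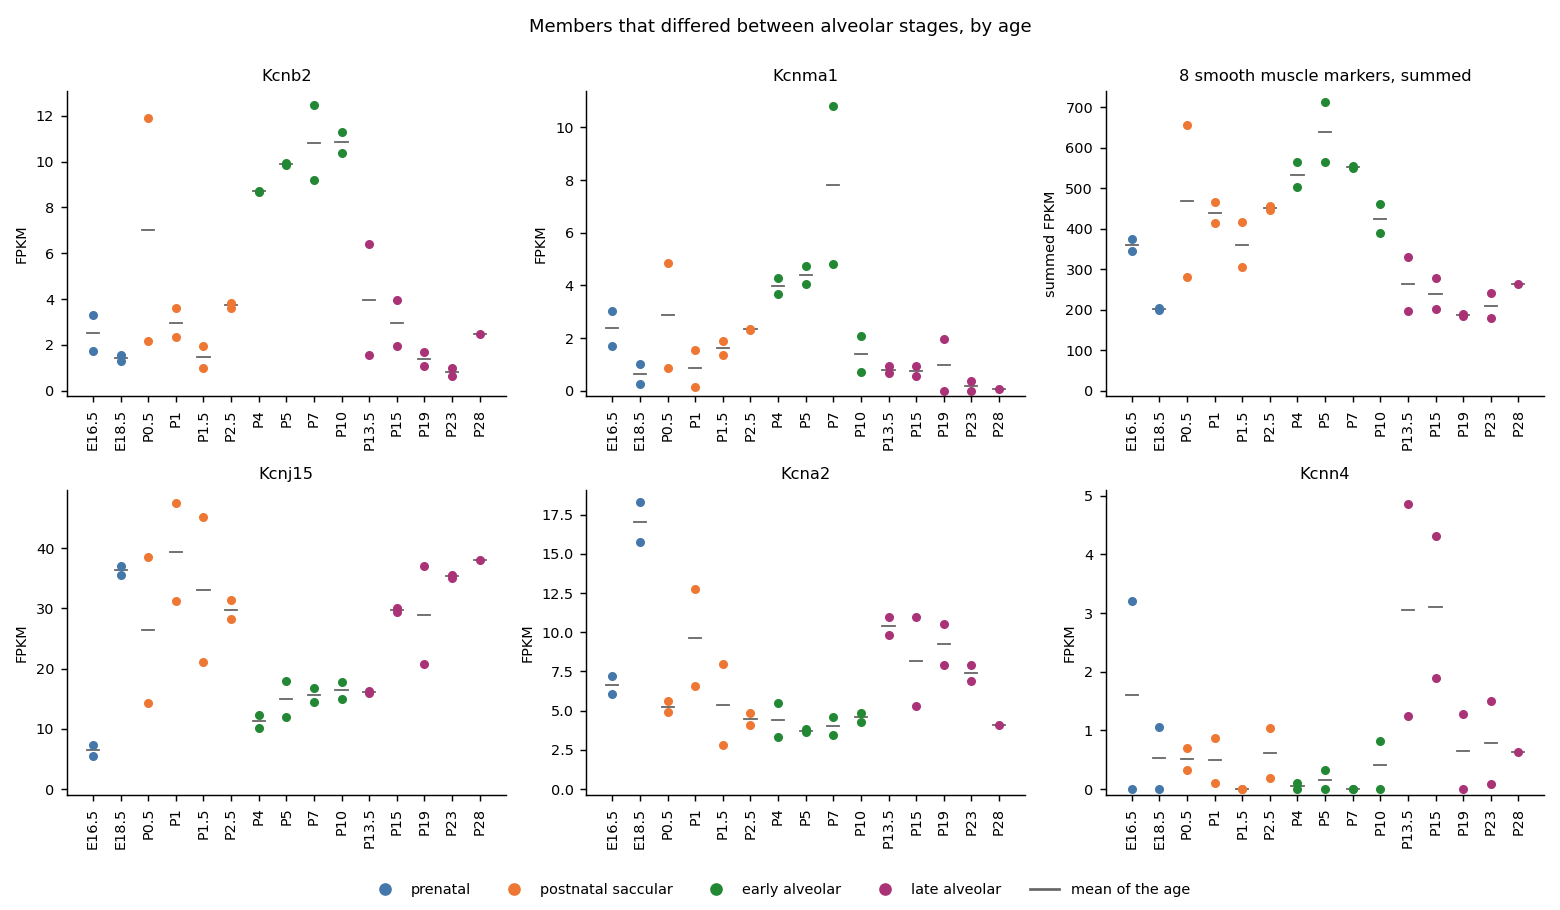
FPKM of Kcnb2, Kcnma1, Kcnj15, Kcna2 and Kcnn4 by age, with the summed FPKM of 8 smooth muscle markers, 1 point per library and a line at the mean of each age. Kcnb2 stands at 8.68 to 12.5 from P4 to P10 and at or below 6.39 from P13.5, and the marker sum at 388.5 to 712.9 and then at or below 330.4.

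Over the whole span, late alveolar against prenatal, 8 of 49 members were called higher and 8 lower, beside 12.7% and 18.3% of all genes. The members' median difference was 0.05 and that of all genes -0.16. With quantile normalization the all gene median was -0.012, all genes divided 2327 higher to 2177 lower (1860 to 2674 without it), and the members 8 to 2. Of the markers, 5 of 6 endothelial and 4 of 5 macrophage markers were called higher. Called lower were 7 of 8 heart muscle, 3 of 4 skeletal muscle and 3 of 5 neuroendocrine and neuronal markers. The 8 smooth muscle markers divided 3 higher to 2 lower, and markers of other lists were called in both directions. Their part was not tested. The comparison shares its libraries with those above, so Kcnh1 (1.39, SE 0.29), Kcne2 (2.09, SE 0.53), Kcnq5 (1.22, SE 0.28) and Kcnk18 (0.89, SE 0.24) stood on the higher side again.

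Kcnq1 and Kcnk6 were also on that side. Kcnq1 had 7.52 FPKM at the lowest, 13.0 at the median and 20.8 at the highest in late alveolar septa, against 3.63, 5.76, 5.34 and 7.61 FPKM in prenatal septa, a log2 difference of 1.07 (SE 0.27, adjusted p = 0.00306). Of the 9 late libraries 8 lay above all prenatal ones. Its exons overlap the long antisense RNA Kcnq1ot1 over 3.0% of their bases. Kcnk6 had 3.56, 7.38 and 10.5 FPKM, against 2.85, 2.89, 3.80 and 2.70, a difference of 0.90 (SE 0.30, adjusted p = 0.0241).

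The lower side held inward rectifiers and Kv1 pores. Kcnj5 had a median of 0 and a highest value of 2.04 FPKM in late alveolar septa, against 8.25, 13.7, 0.087 and 3.37 in prenatal septa, a difference of -1.91 (SE 0.50, adjusted p = 0.00401). Without the 4 libraries highest in heart muscle markers it was -0.70 (adjusted p = 0.323). Kcnj2 had 3.65, 7.44 and 12.3 FPKM, against 8.54, 12.2, 18.7 and 13.6, a difference of -0.80 (SE 0.27, adjusted p = 0.0252). Kcnj8 had 0, 3.16 and 5.62 FPKM, against 4.99, 4.28, 6.67 and 4.45, a difference of -1.23 (SE 0.48, adjusted p = 0.0476). The 3 libraries at 0 for Kcnj8 were P19 pups d and f and P28 pup c, and without the 3 libraries with many zeros its adjusted p was 0.128.

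Kcna6 fell by 1.00, Kcna5 (Kv1.5) by 1.01 and Kcna4 (Kv1.4) by 0.98 on the log2 scale. Kcna5 had 0, 0.0864 and 1.30 FPKM in late alveolar septa, against 1.72, 5.18, 0.73 and 0.40 in prenatal septa, with an adjusted p of 0.0228. Kcnip4 and Kcng2 completed the list at -1.31 and -1.10. Kcnip4 had 0, 1.35 and 2.55 FPKM, against 4.45, 7.22, 3.64 and 1.37, with an adjusted p of 0.0489. For Kcnip4 and Kcnj8, leaving out any of 16 and 15 libraries ended the call (adjusted p up to 0.181 and 0.121). Of the 9 other alternatives, 2 kept the call of Kcnip4 and 1 that of Kcnj8. Single libraries also ended the calls of Kcna5 (E16.5 embryos 9 and 2, up to 0.211), Kcna6 (E16.5 embryo 2, 0.077), Kcnj2 (both E18.5 libraries, up to 0.12) and Kcnk6 (3 prenatal libraries, up to 0.0637). Kcna4 and Kcng2 reached FPKM 1 in only 4 libraries and were not tested once one of these was left out.

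With only the 2 E18.5 libraries before birth, fewer calls stood. Then 3 members were called higher, Kcnh1 among them, and Kcnj2 was the 1 called lower. Some differences stayed near their size without the call, as in Kcnj8 (-1.33, adjusted p = 0.168), Kcnk6 (0.84, 0.174) and Kcnq1 (0.87, 0.0969). Others were smaller, as in Kcnj5 (-0.70, adjusted p = 0.448), Kcna5 (-0.31, 0.645) and Kcne2 (0.92, 0.347). The same 3 and 1 were called without the 4 libraries highest in heart muscle markers. That also leaves only the E18.5 libraries before birth, and the share of all genes called under either setting is not given here.

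**Figure D5:**
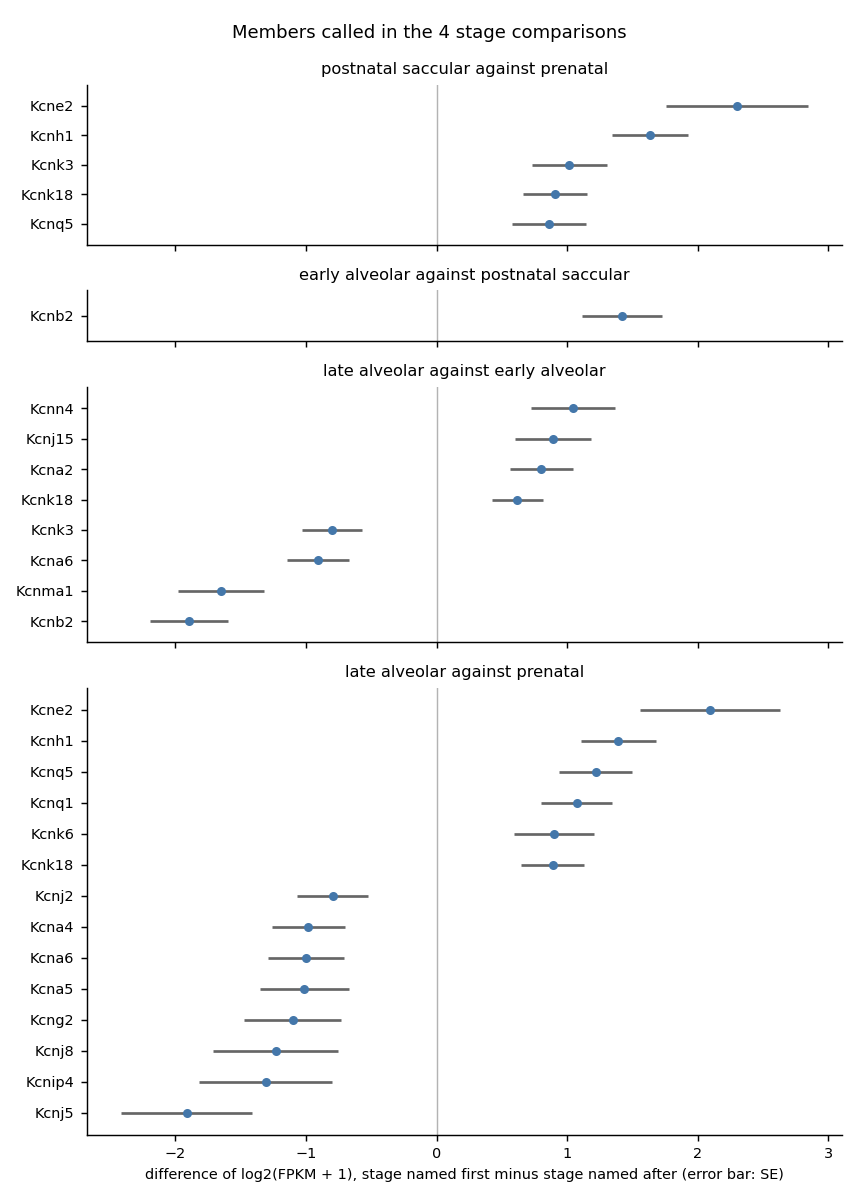
Difference of log2(FPKM + 1) with its SE for members called in the 4 stage comparisons, the stage named first minus the stage named after. The 5 members drawn for postnatal saccular against prenatal lie right of 0, Kcnb2 stands at 1.42 in the next comparison and at -1.90 in the one after, and late alveolar against prenatal is drawn with 6 members on the higher and 8 on the lower side.

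A smooth change with age, tested by limma's F test of a spline over all 29 libraries, was called for 14 of 49 members, beside 30.7% of all genes. Among the 5 smallest adjusted p values were those of Kcne2 (1.4e-04), Kcnj5 (4.2e-04), Kcnq1 (0.00606) and Kcnq5 (0.0061). Without the 4 libraries highest in heart muscle markers these 4 were not called (0.179, 0.0972, 0.0975 and 0.22, in the same order). That removal takes out both E16.5 libraries and with them the youngest age. With postnatal libraries only, 7 of 44 members were called, beside 15.3% of all genes, and Kcnb2, Kcnj5, Kcnj15 and Kcnma1 were called in both. Over all 29 libraries the age call of Kcnj15 was lost without the E16.5 embryo 9 (0.12), the E16.5 embryo 2 (0.114) or P1 pup e (0.0521), and that of Kcnma1 with quantile normalization (0.0636). Abundant members that no comparison called were Kcnk1, Kcnj13, Kcne4 and Kcns3. Animals of 1 age could differ widely in these members and in called ones alike. The called Kcne2 had 24.8 and 1.74 FPKM at P1.5. Kcnk1 had 29.1 and 15.8 FPKM at P1, and Kcne4, an auxiliary subunit that damps KCNQ1 current, had 25.7 and 11.9 FPKM at P10. The 25.7 is from P10 pup a, one of the 3 libraries with many zeros.

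Partner subunits of one channel can be set side by side. Kcnj8 and its receptor subunit Abcc9, which is no member, both lay lower in late alveolar than in prenatal septa. Limma gave -1.23 (adjusted p = 0.0476) for Kcnj8 and -1.39 (adjusted p = 0.000674) for Abcc9. Besides single libraries left out, the call of Kcnj8 held in only 1 of 9 alternatives. At birth Abcc9 fell by 1.34 (adjusted p = 0.00273; 6.08 ± 2.40 FPKM in postnatal saccular septa, n = 8, and 16.4 ± 4.50 in prenatal septa, n = 4, SD), and Kcnj8 was not called. Kcnq1 and Kcnq5 were higher in late alveolar than in prenatal septa, as was Kcne2, while Kcne4 and Kcne3 were not called.

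Other genes that move potassium were taken as a list of 39, namely auxiliary subunits outside the rule, Hcn and Tmem channels, pumps and cotransporters. The test took in 24 of them. At birth 2 were called higher and 2 lower (9.11% and 6.81% of all genes), then 0 and 1 in early alveolar against postnatal saccular septa (0.527% and 0.937%), 2 and 0 in late against early alveolar septa (3.89% and 7.47%), and 4 and 3 over the whole span (12.7% and 18.3%). Atp1b1, a beta subunit of the sodium pump, fell to 43.8 ± 7.01 FPKM in early alveolar septa, against 108 ± 30.4 in postnatal saccular septa (SD, n = 8 each; log2 difference -1.25, adjusted p = 0.00787), and was 0.99 higher again in late alveolar septa (adjusted p = 0.00491). The cotransporter Slc12a2, which brings chloride into fetal epithelium, fell at birth by 0.84 (adjusted p = 0.0126), while the potassium chloride exporter Slc12a4 rose by 0.90 (adjusted p = 0.0078). The alternatives covered members only, so none is given for the genes of this list.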

How the data were processed

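Septal RNA was prepared with a stranded, ribosomal RNA depleting kit and sequenced on an Illumina instrument. Per the labels, the authors used STAR 2.5.1 on mm10 and made the deposited FPKM values with Cufflinks 2.2.1. The annotation and the strand setting are not given in the sources used here. The FPKM are estimates and not multiples of whole reads, so no counting error is given.

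The 24486 lines of the table hold 22779 gene IDs, of which 22718 have a RefSeq symbol. Of several lines with one ID, that with the highest mean was kept, which mattered for Kcne1 and Kcnk18. Stages were tested with limma 3.58.1 (R 4.3.3) on log2(FPKM + 1), in a single model of 4 stages, after a filter that asked for 1 FPKM in 4 libraries and left 14616 genes. The prior variance followed a trend, and Benjamini-Hochberg adjusted p under 0.05 was called. Age entered as a natural spline (3 degrees of freedom) of log2 days from conception, taking birth as day 19, and E18.5 was set against E16.5 in a model of 15 ages. The code was tested on simulated data. Python 3.11.15, numpy 2.4.6, pandas 2.3.3 and matplotlib 3.10.9 were used.

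Members and lists were chosen with earlier results of these data known. The rule named the 12 most abundant members, up to 6 called members per direction and stage comparison (mean of 1 FPKM or more in the higher stage), up to 5 with the smallest p for age, up to 3 per direction for E18.5, partners in one channel, and members unlike their family. Kcna4, Kcnk6, Kcnk2, Kcnk13, Kcnk5, Kcnk7, Kcna3, Kcnh2, Kcnn3 and the 5 genes at 0 were added with their values in view. Some genes that the rule names are not reported here, and counts and tests include them.

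The alternatives were another pseudocount (0.1), no filter, median ratio scaling, quantile normalization, summed lines of an ID, a model of the 2 stages compared, only E18.5 before birth, only libraries after birth, removal of the 3 libraries with many zeros (P19 pups d and f, P10 pup a), and removal of each library singly. Removal of the 4 libraries highest in heart muscle markers was added after seeing the data. Letters name animals within an age and pair none across ages.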

Additional observations from a re-analysis of the deposited data

Results flagged for a closer look

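In 24 members, each of the 4 stages was searched for a library that stands apart from the rest of its stage (Dixon's criterion at 95%). This made 96 groups in all, and in 8 of them a library stood out. Chance gives about 1 in 20 groups. On the high side Kcnk3 had 33.4 FPKM in P10 pup a, Kcnj5 4.03 in P5 pup b, Kcnn4 0.827 in P10 pup f, Kcna6 0.964 in P15 pup c and Kcng2 0.866 in P23 pup e. On the low side Kcne2 had 1.74 FPKM in P1.5 pup d, and Kcnj13 had 0 in P10 pup a and 0.124 in P19 pup d. P10 pup a and P19 pup d are among the 3 libraries with many genes listed at 0, and P5 pup b had 638.7 FPKM of heart muscle markers.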

How the results depend on the processing

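No call changed sign in any alternative. Against only E18.5 before birth, 2 members were called higher and 1 lower (Kcna2) in postnatal saccular septa, against 6 and 0, and 3 higher and 1 lower in late alveolar against prenatal septa, against 8 and 8. Without the 4 libraries highest in heart muscle markers these counts were 2 and 2 (Kcna2, Kcnj2) and 3 and 1, and 7 members changed with age, against 14. Both settings leave out E16.5, and the share of all genes called under them is not given here. Without those 4 libraries Kcnj15 was called lower in early alveolar against postnatal saccular septa, 1 member, as it was with only these 2 stages in the model. That model gave 2 higher in late against early alveolar septa and 5 lower in late alveolar against prenatal septa. Without the 3 libraries with many zeros, 1 member (Kcnn4) was higher in late against early alveolar septa. Quantile normalization gave 2 lower in that comparison, where 864 of all genes were lower. It gave 2 lower in late alveolar against prenatal septa, where 2177 of all genes were lower, and 2 lower at E18.5 against E16.5. No filter gave 4 lower at birth, 13 lower over the whole span, 7 lower at E18.5 and 24 with age, and more genes are then tested. Libraries after birth alone gave 7 of 44 with age, beside 15.3% of all genes. A pseudocount of 0.1 gave 2 higher at E18.5. Except where stated, the share of all genes called under these settings is not given here, so the counts cannot be read against it. The count of 36 members at a mean FPKM of 1 stayed within 1.5 times in every alternative.

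With each library left out in turn, members lower at birth numbered 0 to 2, lower in early alveolar against postnatal saccular septa 0 to 1, higher in late against early alveolar septa 1 to 5, lower in late alveolar against prenatal septa 2 to 8, and higher and lower at E18.5 against E16.5 1 to 2 and 0 to 2. The share of all genes called with each library left out is not given here, and other causes of these shifts were not tested. No paired analysis was possible because the letters and numbers that recur between ages name different animals. What depth limits cannot be judged, since FPKM hold no read counts.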
